A study of Homo sapiens with 32 samples.

Results

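H3K27me3 islands were compared between MDA-MB-231 cells treated with 2 inhibitors together and control cells. The libraries are the 4 labelled combo and the 4 labelled control that were made with an antibody to H3K27me3, 8 of the 32 samples of the series. The series treated this established triple-negative breast cancer cell line for 24 h with an EZH2 inhibitor (EPZ in the treatment label, EP7 in the sample titles), with a p38 MAP kinase inhibitor (P38i), with both (combo, EPZ + P38i) or with neither (control, treatment None). Each group had 4 H3K27me3 libraries and 4 libraries made with IgG; the 16 H3K27me3 libraries have a list of called islands, and the 16 IgG libraries were not analysed here. Libraries were made by ChIPmentation, in which adapters are inserted into immunoprecipitated chromatin on beads. All groups are of 1 cell line. The labels do not say whether the 4 libraries of a group came from separate cultures, so p-values measure the spread between these libraries, which may be technical.

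H3K27me3 is trimethylation of lysine 27 on histone H3. It is written by EZH2 or its relative EZH1 in Polycomb repressive complex 2, is bound by Polycomb repressive complex 1, and lies over genes that a cell keeps silent, often in broad domains over developmental and lineage genes of other tissues. EZH2 inhibitors block new methylation, and existing marks are then diluted as DNA is copied or are removed by demethylases, so that loss takes time. p38 kinases relay stress and cytokine signals and can phosphorylate EZH2, and the series title names a link between EZH2 phosphorylation and p38 signalling in breast cancer.

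None of 4 measures of whole libraries passed a test between combo and control. Control libraries held 53290 to 76736 islands and combo libraries 65384 to 70570, which lay inside the control range. Islands covered 669, 619, 586 and 484 Mb in control libraries 1 to 4 and 526, 532, 615 and 587 Mb in combo libraries 1 to 4. The mean was 589 ± 78.0 Mb (SD, n = 4) in control and 565 ± 43.2 Mb (n = 4) in combo, a difference of -24.3 Mb (2-sided exact permutation p = 0.571). Median island width was 7.4, 6.4, 6 and 4 kb in control and 4.6, 4.8, 5.6 and 5.2 kb in combo (exact permutation p = 0.314). Control replicate 4 was the narrowest control library and had the least covered length, and without control replicate 1 the difference in covered length was 2.20 Mb (exact permutation p = 0.971). Length in islands of 50 kb or more was 78.8 ± 47.1 Mb in control and 61.8 ± 21.6 Mb in combo (n = 4 each, exact permutation p = 0.60). With 70 arrangements the smallest p such a test can give is 0.0286, and each of the 4 measures had a Benjamini-Hochberg adjusted p of 0.60. The files hold no read counts, so depth is unknown, and every value here describes what was called as an island, not the amount of the mark.

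The base pairs covered in every library of a group were largely shared. All 4 control libraries covered 360 Mb in common and all 4 combo libraries 330 Mb, and 252 Mb lay in islands of all 8 libraries. That is 69.99% of the length common to control and 76.4% of the length common to combo. Only 3.84 Mb were covered in every control and no combo library, and 1.73 Mb in every combo and no control library. The Jaccard index, the shared length of 2 libraries over their combined length, was 0.605 to 0.687 between control libraries, 0.603 to 0.655 between combo libraries and 0.579 to 0.676 between a control and a combo library, so the 3 ranges overlapped.

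Coverage of single genes did differ. The percent covered by islands was computed over 19974 protein-coding genes (RefSeq, GRCh38.p14), each with 2.5 kb on both sides, and genes with a mean of 5 to 95% over the 16 libraries of the series were tested with limma in 1 fit of those libraries. Of these genes 15518 lay below the range and 351 above it, and 4105 were tested. Coverage was lower in combo over 59 genes (1.44% of those tested) and higher over 10 (0.244%), at an adjusted p under 0.05, which is 1.68% of the tested genes in all. The falls ran from -64.2 to -12.4 points with a median of -31.6, and the rises from 14.3 to 44.6 points with a median of 23.2. Over all tested genes the median difference was -1.05 points, which became 0.158 after adjusting for each library's covered length and 0.478 when lists were cut to equal length. With 1 library left out it ran from -3.16 without control replicate 4 to 0.50 without control replicate 1, and each combo library left out also moved it by over 1.5 times (-2.06 to -0.116). Of the tested genes 43.6% lay above 0 and 56.1% below, and at an unadjusted p under 0.05 4.99% were higher and 13.5% lower in combo. The 4 combo and 4 control libraries did not overlap in 331 tested genes (8.06%), with combo below in 265 (6.46%) and above in 66 (1.61%); all 10 risen and 52 of the 59 fallen genes were among them. Among all protein-coding genes, 13991 had no island in any of the 8 libraries and 1487 were at least 50% covered in each.

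**Figure D1:**
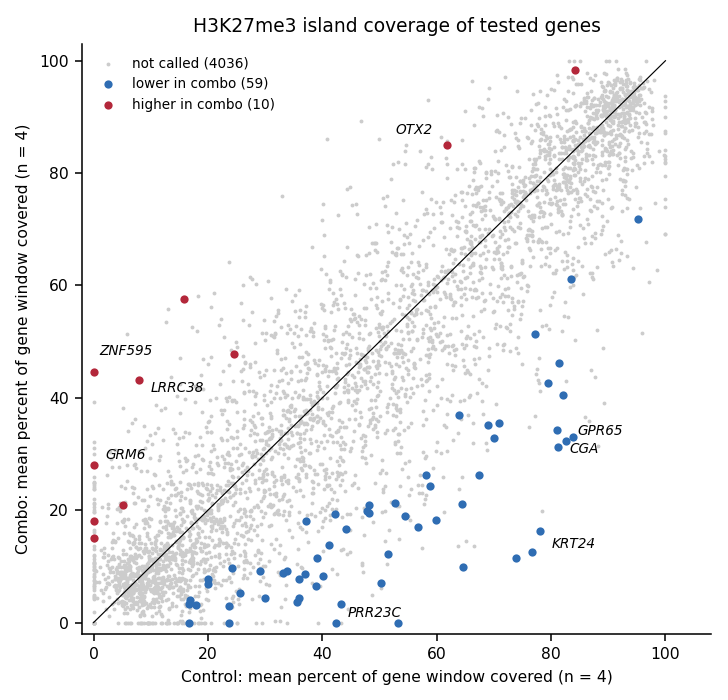
Mean percent of each tested protein-coding gene (with 2.5 kb on each side) covered by H3K27me3 islands in 4 control libraries (x axis) and 4 combo libraries (y axis), 1 point per gene. The 59 fallen genes lie below the diagonal and the 10 risen genes above it.

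These counts depended on single libraries. Without combo replicate 1 limma called no gene, with 185 higher and 403 lower at an unadjusted p under 0.05. Without combo replicate 4 it called 1 higher and 3 lower, without combo replicate 3 it called 4 and 45, and without combo replicate 2 it called 8 and 20. Without control replicate 2 it called 3 higher and 3 lower, without control replicate 3 it called 2 and 6, and without control replicate 1 it called 17 and 19. Without control replicate 4, the narrowest control library, 239 genes were lower and 11 higher. Leaving out P38i replicate 2 or 4, which share the fit, gave 35 and 104 lower genes. A fit of the 8 control and combo libraries alone called 3 higher and 1 lower. The split was 133 higher and 224 lower when each library's covered length was adjusted for, and 39 and 61 when lists were cut to equal length. The 69 genes had the same sign of difference in each of these fits. The fit with lists of equal length tested 62 of them. These genes were chosen for this difference in the same libraries, so a kept sign was largely fixed in advance. Leaving out an EPZ or P38i library, or fitting the 8 libraries alone, cannot change the difference at all.

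The named falls are given by what the genes are known to do, beginning with signalling molecules and their receptors. CGA, the alpha subunit shared by the glycoprotein hormones (chr6:87085498-87095106), was covered to 94.5, 80.8, 82.2 and 67.1% in control libraries 1 to 4 and to 19.2, 41.1, 32.9 and 31.5% in combo libraries 1 to 4. Every combo library lay below every control library, and the difference was -49.99 points ± 8.85 (SE; adjusted p = 0.0192). The widest island within 2.5 kb of the gene was 21, 10.4, 14.8 and 7.8 kb in the control libraries and 3.8, 3.6, 3 and 5.2 kb in the combo libraries. CCKAR, a receptor of the gut hormone cholecystokinin (chr4:26481396-26490484), had 84.5, 93, 66 and 80.9% in control and 15.6, 27, 41.2 and 53.3% in combo. The groups did not overlap, though combo replicate 4 kept more than its fellows, and the difference was -46.9 points ± 10.6 (SE; adjusted p = 0.0422). NPY1R, a neuropeptide Y receptor (chr4:163323962-163344689), had 63.5, 66, 81.3 and 58.8% in control against 20.7, 51.8, 11.7 and 20.9% in combo, with combo replicate 2 nearest to the control range. Its difference was -41.1 points ± 8.75 (SE; adjusted p = 0.0355).

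CABS1, ADAM2 and TDRD15 also fell. CABS1, a calcium-binding protein of spermatids (chr4:70334981-70337116), was covered to 67.5, 67.5, 73.1 and 50.4% in control and to 0, 0, 39.5 and 0% in combo. Combo replicates 1, 2 and 4 had no island there and combo replicate 3 had 2, and the difference was -54.8 points ± 11.3 (SE; adjusted p = 0.0355). ADAM2, a sperm surface protein (chr8:39743735-39838227), had 62.5, 66.2, 68.8 and 42% in control and 2.98, 25, 29.5 and 15.3% in combo, with no overlap (-41.7 points ± 8.08 SE, adjusted p = 0.0298). TDRD15, a Tudor domain gene (chr2:21123932-21147325), went from 82.2% ± 11.6 to 40.5% ± 6.58 (SD, n = 4). These 3 genes were not in the germline list used here, of which 21 of 49 genes were tested and limma called none (3 higher and 5 lower at an unadjusted p under 0.05, against 4.99 and 13.5% of all tested genes). Its median difference was -6.26 points, and -2.71 without combo replicate 2. Over all other ways of processing tried on the percent scale, the germline median ran from -7.70 to 1.78, so its sign was not kept.

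Of the haematopoietic and lymphocyte genes, 3 fell and none rose. GPR65, an acid-sensing receptor on lymphocytes and macrophages (chr14:88005135-88014811), was covered to 94.5, 87.7, 90.7 and 57.2% in control and to 56.6, 25.9, 13 and 33.8% in combo. Combo replicate 1 came within 1 point of control replicate 4, and the groups did not overlap, with a difference of -50.2 points ± 10.6 SE, adjusted p = 0.0355. RGS13, a regulator of G protein signalling in B cells and mast cells (chr1:192636147-192660311), had 96.6, 80.2, 91.2 and 67.1% in control and 0, 34.3, 60.9 and 36.9% in combo. Combo replicate 1 had no island there, combo replicate 3 kept the most, and the difference was -50.8 points ± 10.8 (SE; adjusted p = 0.0355). CD69, a lectin that lymphocytes show soon after activation (chr12:9752486-9760901), had 82, 88, 83.5 and 41.7% in control and 0, 0, 46.2 and 0% in combo. Its groups overlapped, since combo replicate 3 lay above control replicate 4, yet the gene passed the test with a difference of -62.2 points ± 13.3 (SE; adjusted p = 0.0355). These 3 were all the called members among 32 tested genes of a list of 72 haematopoietic and lymphocyte genes, whose median difference was -3.33 points. That median became -0.91 after adjusting for covered length and ran from -5.68 to -0.909 as single libraries were left out, moving by over 1.5 times without control replicate 1, 3 or 4 or combo replicate 1, 3 or 4. On average 33.3% ± 2.27 of the 72 genes were at least 50% covered in control and 27.4% ± 3.28 in combo (SD, n = 4 each).

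Among the named genes the loss reached the gene start of CABS1, GPR65, the bitter taste receptor TAS2R9 and the transporter SLCO1A2, where at least 3 control libraries and no combo library had an island. An island lay over the start of CABS1 in control replicates 1, 2 and 3 and in no combo library, and over the start of GPR65 in all 4 control libraries and in no combo library. The starts of TAS2R9 and SLCO1A2 lay in islands in 3 control libraries each. EPZ covered the start of CABS1 in 2 libraries and the other 3 starts in 0, and P38i covered those of CABS1, GPR65, TAS2R9 and SLCO1A2 in 2, 3, 0 and 2 libraries. The 300 bases around the starts of the 3 with the largest differences (250 before and 50 after, RefSeq, GRCh38.p14) are shown because CpG density is the sequence property most often tied to Polycomb recruitment at promoters. They are written in lower case with each CG in capitals, for CABS1 at chr4:70334731-70335030, + strand, for TAS2R9 at chr12:10810119-10810418, - strand, and for GPR65 at chr14:88004885-88005184, + strand.
CABS1: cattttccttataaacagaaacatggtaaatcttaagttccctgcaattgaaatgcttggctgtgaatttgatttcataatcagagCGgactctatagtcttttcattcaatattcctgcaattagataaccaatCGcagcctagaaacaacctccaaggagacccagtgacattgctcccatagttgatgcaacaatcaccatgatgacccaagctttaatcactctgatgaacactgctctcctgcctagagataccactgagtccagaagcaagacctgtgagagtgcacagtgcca
TAS2R9: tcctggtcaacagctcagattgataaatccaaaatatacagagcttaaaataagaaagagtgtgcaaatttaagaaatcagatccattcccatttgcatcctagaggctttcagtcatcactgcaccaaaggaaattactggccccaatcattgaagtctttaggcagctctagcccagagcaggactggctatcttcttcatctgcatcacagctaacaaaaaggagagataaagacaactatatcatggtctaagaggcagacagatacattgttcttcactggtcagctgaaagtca
GPR65: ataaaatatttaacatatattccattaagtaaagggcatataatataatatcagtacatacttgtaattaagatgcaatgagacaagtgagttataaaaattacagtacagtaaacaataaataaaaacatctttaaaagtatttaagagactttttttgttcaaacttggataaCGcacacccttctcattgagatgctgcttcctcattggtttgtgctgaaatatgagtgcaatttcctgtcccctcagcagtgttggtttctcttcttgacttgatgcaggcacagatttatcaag
CABS1 holds 2 CG, TAS2R9 holds 0 and GPR65 holds 1, where the median of 27305 RefSeq promoters of that length is 14. CG is its own reverse complement, so 1 strand gives the count, and 95.8% of the promoters hold at least 1.

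Of the neuronal genes, 1 of 60 tested members of a list of 91 fell and 1 rose, against 1.44 and 0.244% of all tested genes. STMN2, a microtubule regulator of growing axons (chr8:79611117-79666158), had 43.6, 54.9, 53.9 and 40.3% in control and 28, 23.6, 17.3 and 14.6% in combo. All combo libraries lay below all control libraries, and the difference was -27.3 points ± 5.85 (SE; adjusted p = 0.0355). STMN2 was also the 1 called gene of 13 tested genes of a list reported as silenced by EZH2 in tumours, whose median difference was -10.6 points (-6.16 without control replicate 2), with 11 below 0 and 2 above, against 56.1% below 0 over all tested genes. GRM6, the metabotropic glutamate receptor of retinal bipolar cells (chr5:178978327-178995320), had no island within 2.5 kb in any control library and was covered to 33.6, 19, 28.2 and 31.7% in combo libraries 1 to 4 (28.1 points ± 4.45 SE, adjusted p = 0.0131). SCN9A, a sodium channel of pain-sensing neurons (chr2:166195185-166375987), went from 29.1% ± 7.69 to 9.27% ± 3.51 (n = 4, -19.8 points ± 4.36 SE, adjusted p = 0.0364), the 1 call among 21 tested sodium and calcium channel subunits. NDNF, a secreted neurotrophic factor (chr4:121035613-121072535), had 51.3, 53.5, 71.9 and 29.2% in control and 9.06, 9.54, 23.7 and 6.68% in combo, with combo replicate 3 the highest of its group and still below control (-39.2 points ± 8.28 SE, adjusted p = 0.0355).

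Of the developmental regulators outside the HOX clusters, 1 was called. OTX2, the homeobox factor that patterns the forebrain and eye (chr14:56799905-56810479), rose, the 1 call among 62 tested members of a list of 131. Islands covered 62.9, 60.2, 58.9 and 65.4% of it in control and 80.8, 80.7, 92.3 and 85.9% in combo. The control libraries lay close together and every combo library lay above them (23.1 points ± 5.05 SE, adjusted p = 0.0364). HOXD1, a body patterning factor of the HOXD cluster (chr2:176188668-176190907), was the 1 called gene among 6 tested HOX genes and fell: it had 22.2, 44.3, 49.8 and 44.3% in control and 0, 0, 22.2 and 11.1% in combo (-31.8 points ± 6.41 SE, adjusted p = 0.0351). Combo replicate 3 equalled control replicate 1, so the groups touched. The other 33 of 39 HOX genes lay below the tested range. CXXC4, an inhibitor of WNT signalling (chr4:104468308-104494894), had 58.8, 60.1, 72.8 and 35.4% in control and 20.9, 9.46, 21.5 and 16.4% in combo, without overlap (-39.7 points ± 8.81 SE, adjusted p = 0.0374). Of 29 tested WNT, BMP and FGF ligands and antagonists limma called none (1 higher and 4 lower at an unadjusted p under 0.05, against 4.99 and 13.5% of all tested genes), and BMP6 stood at 91% ± 1.86 in control and 91.8% ± 0.622 in combo (n = 4).

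The rise at OTX2 reached its start, as did that at ZNF595. An island lay over the start of OTX2 in control replicate 4 alone and in all 4 combo libraries, and in EPZ and P38i it did so in 4 and 3 libraries. The widest island at OTX2 was 9.8, 8.2, 8.6 and 7.2 kb in control libraries 1 to 4 and 31.6, 8.6, 17.6 and 40.4 kb in combo libraries 1 to 4, so combo replicate 2 lay inside the control range. EPZ replicate 4 and P38i replicate 3 had wider islands, of 86.6 and 62.6 kb. ZNF595, a zinc finger gene near the end of the short arm of chromosome 4 (chr4:53321-88208), had no island within 2.5 kb in any control library and was covered to 43.1, 45.1, 45.1 and 45.1% in combo libraries 1 to 4. Its start was covered in 0 control and 4 combo libraries. The difference was 44.6 points ± 10.2 (SE; adjusted p = 0.0422), and the EPZ and P38i libraries were at 31.9% ± 21.6 and 12.6% ± 21.8 (n = 4 each). The 300 bases around these starts are shown for comparison with the fallen genes, with CG in capitals, for OTX2 at chr14:56810430-56810729, - strand, and for ZNF595 at chr4:53071-53370, + strand.
OTX2: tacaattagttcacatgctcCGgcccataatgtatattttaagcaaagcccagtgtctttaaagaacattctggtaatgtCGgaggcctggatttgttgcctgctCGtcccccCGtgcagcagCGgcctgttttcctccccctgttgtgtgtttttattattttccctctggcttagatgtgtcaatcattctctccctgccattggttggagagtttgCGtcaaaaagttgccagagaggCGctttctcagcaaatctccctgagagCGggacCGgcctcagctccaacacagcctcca
ZNF595: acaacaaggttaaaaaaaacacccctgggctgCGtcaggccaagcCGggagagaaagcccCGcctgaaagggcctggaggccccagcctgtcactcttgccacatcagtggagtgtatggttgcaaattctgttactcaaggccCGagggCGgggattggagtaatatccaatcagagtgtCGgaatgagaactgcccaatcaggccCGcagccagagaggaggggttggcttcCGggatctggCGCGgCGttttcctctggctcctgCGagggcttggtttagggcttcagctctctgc
OTX2 holds 9 CG and ZNF595 holds 12, more than CABS1, TAS2R9 and GPR65 and fewer than the median of all RefSeq promoters. Over the 3162 tested genes with a matched promoter the median was 10, below ZNF595 and above OTX2. Over the 46 fallen and 9 risen genes with a matched promoter it was 6.5 and 12, and this was not tested. These 5 promoters belong to the named called genes, up to 3 risen and 3 fallen with the largest differences, whose start gained or lost an island in at least 3 libraries, and are no sample of the called genes.

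**Figure D2:**
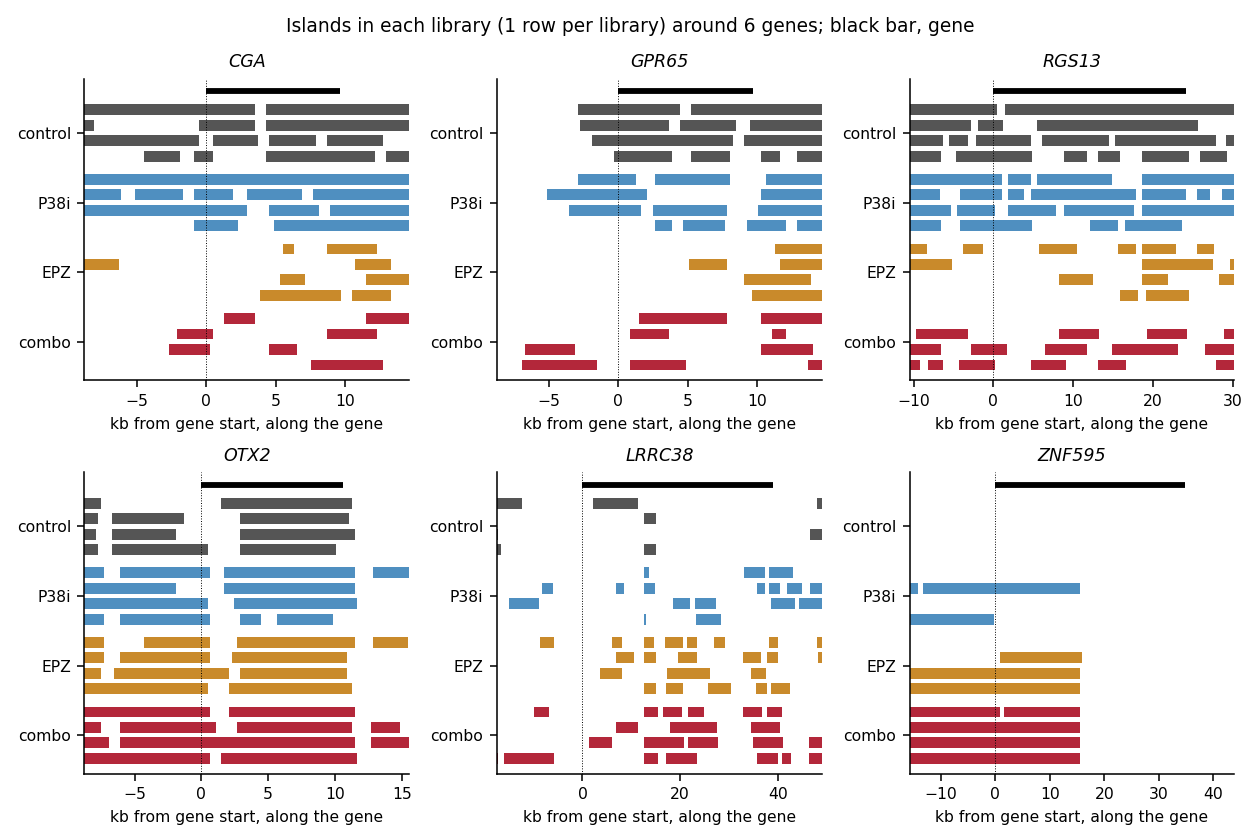
Islands called in each of the 16 libraries around CGA, GPR65, RGS13, OTX2, LRRC38 and ZNF595, with the distance from the gene's start in kb on the x axis, 1 row per library and the gene as a black bar. In the top row, over the 3 fallen genes, islands cover less of the gene in combo than in control, and in the bottom row, over the 3 risen genes, they cover more.

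Zinc finger genes, which encode a large family of DNA-binding proteins, had more differences above 0 than below. Of 528 genes named ZNF or ZFP, 448 lay below the tested range and 4 above it. Of the 76 tested 2 rose and none fell, against 0.244 and 1.44% of all tested genes. In limma 60 differences lay above 0 and 15 below, against 43.6 and 56.1% of all tested genes. Their median difference was 7.02 points (8.09 after adjusting for each library's covered length and 11.9 with lists of equal length). On average 2.84% ± 0.64 of the 528 genes were at least 50% covered in control and 4.5% ± 0.87 in combo (SD, n = 4 each). ZNF117 (chr7:64971772-64991036), the other zinc finger gene that rose, had no island in control and 13.2, 19.8, 28 and 11.5% in combo (18.1 points ± 3.83 SE, adjusted p = 0.0355). LOC124904708 (chr19:37532851-37551339), a gene model on chromosome 19, had 33.4, 14.7, 15.3 and 0% in control and 59, 47, 47.7 and 77% in combo, without overlap (41.8 points ± 8.67 SE, adjusted p = 0.0355). Zinc finger genes lie in clusters, so neighbouring members can share islands and are not independent.

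The other risen genes had varied roles. LRRC38, an auxiliary subunit of BK potassium channels (chr1:13474973-13514003), had 20.9, 5.45, 0 and 5.45% in control and 38.6, 45.4, 56.8 and 31.6% in combo, and the lowest combo library lay above the highest control library (35.2 points ± 5.45 SE, adjusted p = 0.0131). MGMT, which removes alkyl groups from guanine in DNA (chr10:129467241-129770983), was covered to 12.4, 2.27, 3.63 and 2.4% in control and 19.3, 17.4, 21.5 and 25.6% in combo. Control replicate 1 stood above the other controls and below all combo libraries (15.8 points ± 2.88 SE, adjusted p = 0.0192), and no library had an island over the MGMT start. OR3A1, an olfactory receptor (chr17:3291017-3298360), was broadly covered in both groups, at 94.7, 78.5, 83.3 and 80.1% in control and 99.5, 96.3, 100 and 97.9% in combo (14.3 points ± 3.11 SE, adjusted p = 0.0362). It was the 1 call among 207 tested olfactory receptors, whose median difference was -3.44 points and ran from -7.30 without control replicate 4 to -1.20 without control replicate 1, with -2.22 without control replicate 3 and -1.74 with lists of equal length. FAM135B (chr8:138130023-138497730) went from 24.5% ± 6.83 to 47.8% ± 9.6 (n = 4), and KIAA1755 (chr20:38210503-38260735) from 0 in every control library to 15% ± 4.24. For ZNF595, GRM6, ZNF117 and KIAA1755, at 0 in all 4 control libraries, the shared spread of the fit may be too small and the p-value too low.

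Keratin, transporter and chemosensory receptor genes completed the named falls. KRT24, a type I keratin (chr17:40697991-40703752), had 93.9, 64.7, 88.8 and 64.7% in control and 0, 27.5, 15.9 and 21.5% in combo, without overlap (-61.8 points ± 13.3 SE, adjusted p = 0.0355). It was the 1 call among 27 tested keratins, whose median difference was 8.44 points, opposite in sign to the change at KRT24. The keratin median became 3.44 with lists of equal length and ran from 2.41 to 13.1 as single libraries were left out, moving by over 1.5 times without any 1 control library or without combo replicate 3 or 4. SLCO1C1, a thyroid hormone transporter of brain capillaries (chr12:20695332-20753386), had 55.5, 46.6, 54.8 and 16.2% in control and 0, 5.07, 7.93 and 0% in combo (-40.02 points ± 6.88 SE, adjusted p = 0.0192). Its neighbour in the family, the organic anion transporter SLCO1A2 (chr12:21264600-21419634), went from 33.1% ± 11.4 to 8.81% ± 3.07, and the sulfate transporter SLC13A1 (chr7:123113531-123199971) from 25.6% ± 6.84 to 5.19% ± 6.03 (n = 4). These were the 3 calls among 110 tested solute carriers of 390, where 1.44% of all tested genes were called lower. At an unadjusted p under 0.05 in limma, 17 solute carriers were lower and 5 higher, against 13.5 and 4.99% of all tested genes. The solute carrier median difference was -1.11 points, near that of all tested genes. It ran from -2.61 without control replicate 4 to 0.911 without control replicate 1, with -0.576 and -0.0791 without combo replicates 1 and 2.

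The trace amine receptor TAAR9 (chr6:132538277-132539336) had 100, 83.1, 100 and 23.7% in control and 0, 49.9, 0 and 0% in combo, and combo replicate 2 lay above control replicate 4 (-64.2 points ± 15.1 SE, adjusted p = 0.0464). The bitter taste receptor TAS2R9 (chr12:10809094-10810168) had 83.5, 75.8, 0 and 53.8% in control and no island in any combo library, but control replicate 3 was also at 0 (-53.3 points ± 12.4 SE, adjusted p = 0.0458). TAAR9 and TAS2R9 were each called in only 3 of the 16 fits with 1 library left out. These 2 were the called members of 13 tested taste and trace amine receptors of 34, where 1.44% of all tested genes were called lower. At an unadjusted p under 0.05 in limma, 4 of the 13 were lower and 0 higher, against 13.5 and 4.99% of all tested genes. Their median difference of -23.9 points became -10.0 with lists of equal length. Members on chromosomes 6 and 12 lie in clusters, so neighbours can share islands and are not independent. PRR23C (chr3:139042102-139044892) had 48.8, 41.1, 38.5 and 41.1% in control and no island in any combo or EPZ library (-42.3 points ± 5.9 SE, adjusted p = 0.0131). TAS2R9 also had no island in any EPZ library. For these genes the shared spread of the fit may be too small and the p-value too low. HEPACAM2, an adhesion molecule of the immunoglobulin family (chr7:93188534-93232285), went from 79.4% ± 9.25 to 42.6% ± 8.09 (n = 4). LRRC63 (chr13:46211928-46277115) went from 71% ± 10.9 to 35.5% ± 11.5 (n = 4).

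**Figure D3:**
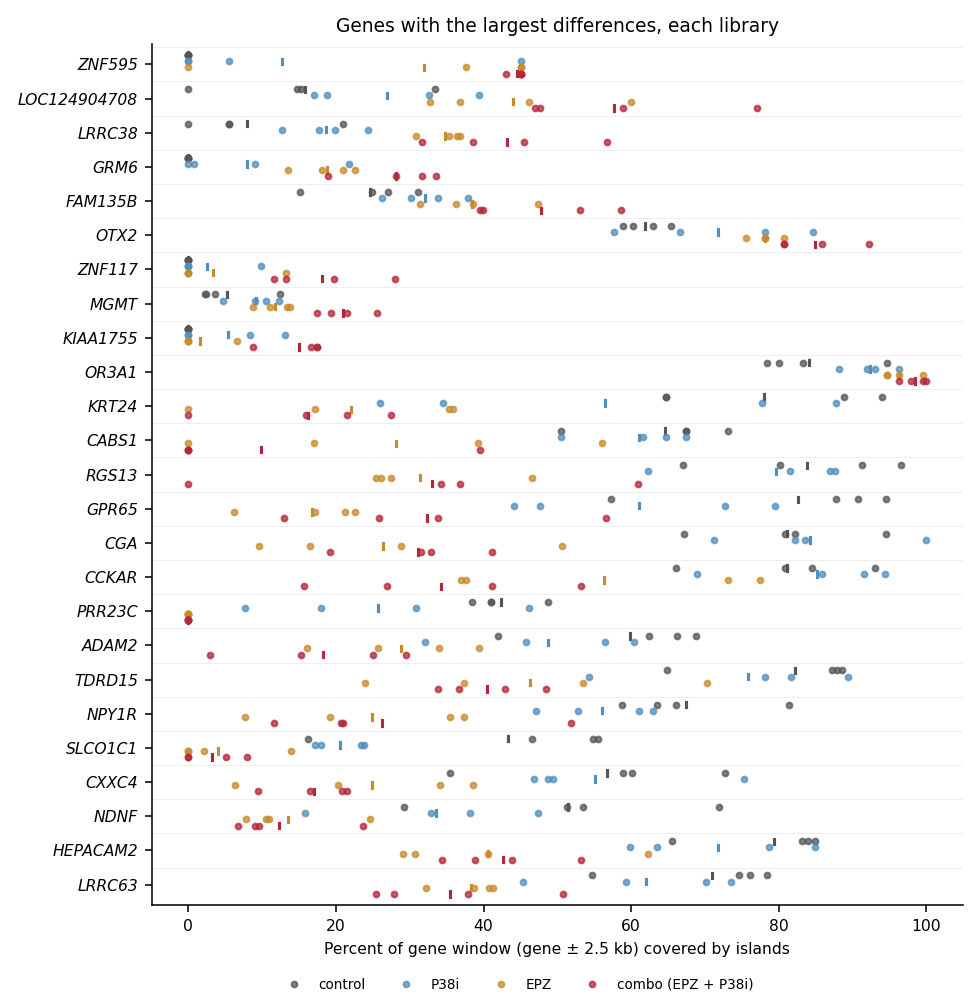
Percent of the gene window covered by islands (x axis) for the 10 risen genes and 15 of the 16 fallen genes with the largest differences among those without overlap, 1 point per library of control, P38i, EPZ and combo and a short vertical line at each group mean. All 4 combo points lie to the right of all 4 control points for the risen genes, from ZNF595 to OR3A1, and to the left for the fallen genes, from KRT24 to LRRC63.

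The changes were partial in most genes. Of the 59 fallen genes, 29 had a control mean of at least 50% and 39 had a combo mean under 20%, but only 4 had no island in any combo library. Per library, a fallen gene met a median of 3.5 islands in control and 2 in combo, and its widest island had a median of 11.3 kb in control and 4.5 kb in combo. The widest island was narrower in combo in 59 of 59 fallen genes, and 53 had fewer islands. For the 10 risen genes the medians were 1 and 2.13 islands and 3.38 and 9.35 kb. These island values come from the contrast that chose the genes and are a description. Fallen genes had a median length of 52.4 kb, risen genes 27.1 kb and all tested genes 33.7 kb. Of the 69 genes, 39 could be tested in a window of 2.5 kb around the gene start, where none of the 69 was called and limma called 1 gene lower and none higher (193 lower and 97 higher at an unadjusted p under 0.05).

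The single inhibitors were read in the same fit, and their comparisons share the control or the combo libraries with this one. Over the 59 fallen genes the median of the group means was 48.2% in control, 13.8% in EPZ, 38.6% in P38i and 13.8% in combo. Over the 10 risen genes it was 6.57% in control, 33.4% in EPZ, 15.6% in P38i and 43.8% in combo. Between combo and EPZ limma called no gene (0%), though 224 had an unadjusted p under 0.05, and the smallest adjusted p among the 69 was 0.531. The median of combo minus EPZ was -0.938 points over the fallen and 9.37 points over the risen genes. None of the fallen and 3 of the risen genes had an unadjusted p under 0.05: ZNF117 was at 3.3% ± 6.59 in EPZ, MGMT at 11.8% ± 2.34 and KIAA1755 at 1.63% ± 3.26 (n = 4 each). The called genes were chosen for their difference between combo and control in these same libraries. That choice can push combo minus EPZ or P38i up over the risen genes and down over the fallen genes. It can likewise push EPZ or P38i minus control up over the risen and down over the fallen genes. The group medians above are therefore a description. ZNF117 and KIAA1755 were low in control, EPZ and P38i and entered the test through their combo coverage. A missed threshold does not show that combo and EPZ are alike. The count rose to 1 without control replicate 4 and to 2 without EPZ replicate 4.

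Between combo and P38i, 76 genes were lower in combo and 3 higher (1.92% of those tested). They included 24 of the 59 fallen and 2 of the 10 risen genes. The total of 79 was 31, 31, 18 and 232 without P38i replicates 1 to 4, 29, 21, 49 and 30 without combo replicates 1 to 4 and at least 53 without any other library. CGA was at 84.2% ± 11.9 in P38i against 31.2% ± 9.04 in combo (n = 4 each, adjusted p = 0.00905), and LRRC38 at 18.7% ± 4.83 against 43.1% ± 10.7 (adjusted p = 0.0373). The interaction term asked whether the combination departs from the sum of the single inhibitors, and 2 genes passed (0.0487%), with 141 at an unadjusted p under 0.05. They were ZNF853 (chr7:6615610-6624290), at 0 in control, EPZ and combo and at 24.5% ± 7 in P38i, and LOC107987433 (chr5:1285397-1289245), at 0 in control and combo, 17.5% ± 13.1 in EPZ and 30.5% ± 5.98 in P38i (n = 4 each). Their p-values may also be too low, since whole groups were at 0. ZNF853 had islands in P38i libraries alone and entered the test through them. None of the 69 called genes had an interaction that passed, with an adjusted p of 1 for each. The interaction count ran from 0 to 4 as single libraries were left out: it was 0 without control replicate 2, EPZ replicate 1 or 3, P38i replicate 1 or combo replicate 2 or 3, and 4 without control replicate 3 or P38i replicate 2.

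Outside the named calls, the gene lists differed in median more than in calls. Of the 69 called genes 52 belonged to none of the 35 lists. The 18 tested UGT genes, which conjugate drugs, bilirubin and steroids to glucuronic acid, all lay below 0, as did 56.1% of all tested genes, and limma called none (7 lower at an unadjusted p under 0.05, against 13.5% of all). Their median was -15.6 points and became -8.74 with lists of equal length. The share of the 21 UGT genes at least 50% covered was 33.3% ± 18.2 in control and 14.3% ± 9.52 in combo (SD, n = 4 each). UGT1A genes overlap each other on chromosome 2 and UGT2 genes form a cluster on chromosome 4, so these members are not independent. Of 17 tested imprinted genes 11 lay above 0, against 43.6% of all tested genes, and none was called by limma (2 higher and 1 lower unadjusted, against 4.99 and 13.5% of all tested genes). Their median of 6.53 points became 11.1 with lists of equal length, 3.97 without control replicate 2 and 3.96 without control replicate 3. Serpins, protease inhibitors, had a median of 11.4 points over 10 tested genes, and 4.61 without control replicate 4, and none was called by limma (2 higher and 1 lower unadjusted, against 4.99 and 13.5% of all tested genes). The UGT, imprinted, serpin and zinc finger medians kept their sign under both adjustments for covered length.

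**Figure D4:**
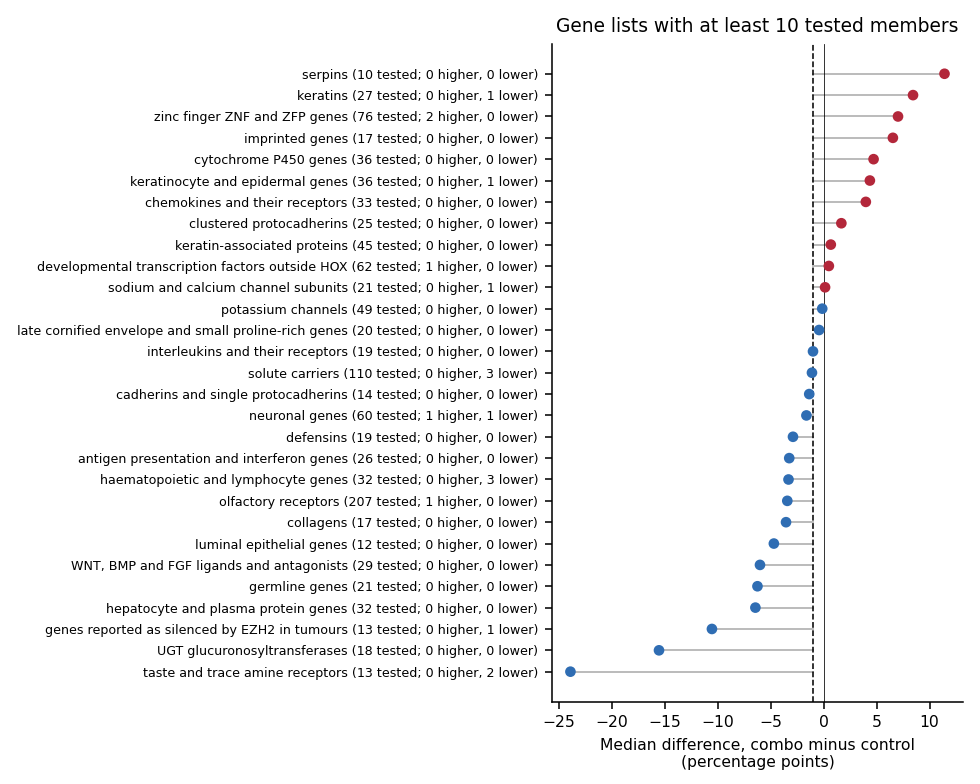
Median difference in coverage, combo minus control in percentage points, over the tested members of each gene list with at least 10 tested members, with the number tested, higher and lower beside each name; red points lie above 0, blue points below, and the dashed line is the median over all tested genes (-1.05). Taste and trace amine receptors (-23.9) and UGT genes (-15.6) lie lowest, and serpins (11.4) and keratins (8.44) highest; with lists of equal length these 4 medians were -10.0, -8.74, 12.9 and 3.44.

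The targets and pathway of the inhibitors carried little of the mark. EZH2 (chr7:148807383-148884291) and MAPK14, which encodes p38 alpha (chr6:36027808-36124214), had no island in any of the 8 libraries. Of 55 p38 pathway genes 51 lay below the tested range and 4 were tested, with no call by limma (2 lower unadjusted) and a median of -8.00 points that became 0.485 with lists of equal length. MAP2K6, an upstream kinase of p38 (chr17:69414697-69553865), stood at 76.8% ± 10.7 in control and 69.7% ± 13 in combo (n = 4 each, adjusted p = 0.676). Of 34 Polycomb subunits 1 was tested, EZHIP, an inhibitor of the complex (chrX:51406948-51408843), at 39.99% ± 11.9 and 56% ± 12.9 (n = 4 each, adjusted p = 0.567). Housekeeping genes, 40 in the list, all lay below the tested range. The mark does not measure expression, so the cell line label could only be set against what is known of the line. The 10 mesenchymal genes checked that MDA-MB-231 cells are known to express, VIM and CD44 among them, had no island in any of the 8 libraries. The gene list of 43 mesenchymal and invasion genes of the line was mixed. Of these 36 lay below the tested range, 5 were tested without a call by limma and 2 lay above it. Its member CXCR4 was covered to 88.6% ± 9.46 in control and 92.6% ± 5.04 in combo (n = 4 each). Of 13 luminal genes it is known to lack, PGR was covered to 95.7% in both groups and FOXA1 to 73.6% ± 9.06 in control and 55.8% ± 21.2 in combo (n = 4 each), and 8 had no island.

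By chromosome, the fallen genes were most frequent on chromosome 4. It held 11 of the 59 fallen genes among 207 tested and 1 risen gene, with a median difference of -11.0 points. Islands covered 28.2 ± 6.47 Mb of it in control and 21.8 ± 2.04 Mb in combo (SD, n = 4 each), -22.6%, the largest fractional decrease of the 23 chromosomes. Chromosome 19, rich in zinc finger genes, held 1 risen and 0 fallen genes among 257 tested, with a median of 6.27 points. Islands covered 7.69 ± 1.23 Mb of it in control and 9.22 ± 1.09 Mb in combo, 19.99% more. The groups overlapped on every chromosome, and these lengths were not tested.

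**Figure D5:**
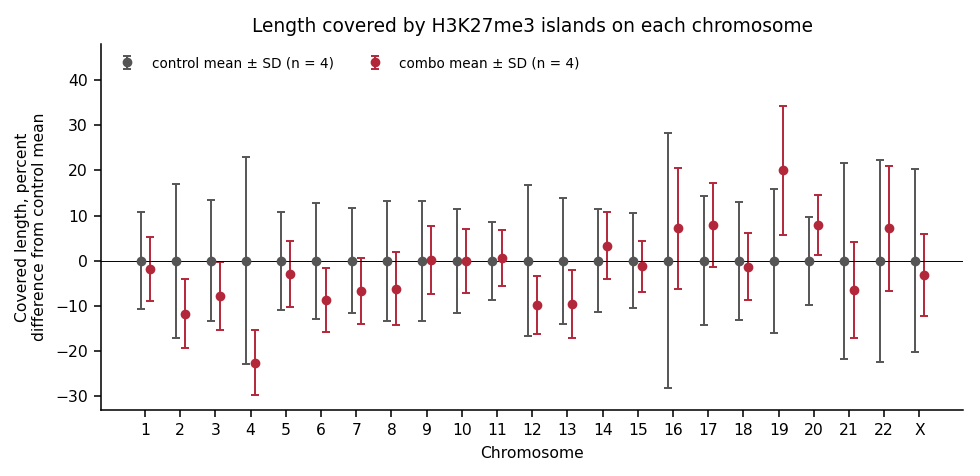
Length covered by islands on chromosomes 1 to 22 and X (x axis), as the percent difference from the control mean (y axis), with points at the group means and bars of ± 1 SD (n = 4 each). Chromosome 4 has the lowest combo mean (-22.6%) and chromosome 19 the highest (19.99%).

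Bins of 10 kb gave few calls. Of 302875 bins, 187010 had no island in any of the 8 libraries, 33251 were at least 50% covered in all 8, and 91045 were tested, with 6 lower and 4 higher in combo (0.011%). At an unadjusted p under 0.05 there were 6928 lower and 3781 higher. Single libraries decided these calls: without control replicate 4 there were 81 lower and 6 higher, and without control replicate 2 or 3, EPZ replicate 1, P38i replicate 1 or 2, or combo replicate 4 limma called 0 lower and 1 higher (at least 4962 lower bins at an unadjusted p under 0.05). Without combo replicate 1 there were 0 lower (5244 unadjusted), without EPZ replicate 2 there was 1, without control replicate 1 there were 2, and without combo replicate 2 there were 3, while 10 fell without combo replicate 3 and 11 without P38i replicate 4. The bin at chr7:117360001-117370000, in the germline gene ASZ1, was covered to 98, 100, 100 and 78% in control and to 0, 24, 10 and 6% in combo. The bin at chr6:122770001-122780000, at the brain fatty acid binding protein gene FABP7, had 80, 100, 96 and 66% in control and 14, 4, 0 and 0% in combo. Both were apart by more than 50 points between the nearest libraries of the groups. On chromosome 13, 2 bins without a protein-coding gene fell, and at chr13:62890001-62900000 coverage was 94, 54, 82 and 90% in control and 0, 4, 0 and 0% in combo. At chr2:175270001-175280000 all 4 control libraries were at 100% and the combo libraries at 48, 42, 42 and 44%.

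Among the bins that rose, that at chr11:133340001-133350000, inside the neural adhesion gene OPCML, was at 0 in every control and P38i library. It had 78, 100, 92 and 66% in combo and 70, 64, 70 and 34% in EPZ. A bin at chr19:56480001-56490000 was at 0 in every control library and had 92, 100, 78 and 92% in combo. The other 2 adjoin near the centromere of chromosome 2. At chr2:90390001-90400000 all 4 combo libraries were at 100% and all 12 control, EPZ and P38i libraries at 0, and at chr2:90380001-90390000 the combo libraries had 100, 24, 100 and 100% and the other 12 none. In the next bin, chr2:90400001-90410000, all 4 combo libraries and control replicate 1 had the same 24%, so control was not free of islands beside this site. The cause of that shared value was not tested. The bin at 100% in all 4 combo libraries was also called between combo and EPZ and between combo and P38i (limma adjusted p = 0.00016 for each), and no interaction of a called bin passed. That bin had no spread within any group, so its p-values rest on the spread shared across bins and may be too low, and the other 3 risen bins, at 0 in all control libraries, carry the same caution.

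Counted without a fit, 346 bins (0.114%) were lost, that is at least 50% covered in all 4 control and no combo library, and 150 (0.0495%) were gained by the opposite rule. Fewer libraries make the rule looser, and with 1 library left out there were 445 to 1187 lost and 177 to 576 gained bins, the most lost without control replicate 4 and the most gained without control replicate 1. Chromosome 2 lost 42, chromosome 6 lost 38 and chromosome 4 lost 37, while chromosome 19 gained 9 and lost 0. The longest gained run was 30 kb at chr4:40001-70000 over ZNF595, at 0 in every control library and at 93.3, 96.0, 96.0 and 96.0% in combo. A run of 20 kb at chr11:133340001-133360000 in OPCML had 69, 78, 92 and 67% in combo and 0 in control. The lost runs were at most 20 kb, as at chr6:153600001-153620000, with 54, 89, 85 and 65% in control and 22, 24, 26 and 22% in combo. In the libraries that did not choose these bins, 13.6 to 44.8% of the lost bins were at least 50% covered in single EPZ libraries and 42.8 to 79.8% in single P38i libraries. Of the gained bins, 34.0 to 60.0% were at least 50% covered in single EPZ libraries and 29.3 to 52.0% in single P38i libraries.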

How the data were processed

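The deposited files are 1 list of H3K27me3 islands per library on build hg38. The authors deposited only positions (chromosome, start, end), without a measured value. The submitters' processing notes name Bowtie2 2.3.4.1, the island caller SICER, SAMtools 1.2, bedtools 2.28.0, Picard, FastQC, cutadapt and Trim Galore; how SICER was set is not given in the sources used here. Island bounds fall on windows of 200 bp, and gaps are at least 800 bp.

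Percent coverage by islands was computed for each RefSeq gene span with 2.5 kb on each side, and for each 10-kb bin, on chromosomes 1 to 22 and X. In R 4.3.3, limma 3.58.1 (trend, robust) fitted the 16 libraries; p-values were adjusted by the Benjamini-Hochberg method per contrast, with 0.05 as the threshold. Tested on simulated data, the fit recovered 141 of 200 genes (70.5%) among 4105 that were shifted by 30 points in combo against control, with 6 false calls. The simulated noise was normal and drawn separately for each gene and library. It was not held within the range of a percentage and had no differences in covered length between libraries. The counts recovered and falsely called may therefore not hold for the real libraries. Library measures had exact permutation tests. Python 3.11.15, pandas 2.3.3, scipy 1.17.1 and bedtools 2.31.1 were used.

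The comparison, the 35 gene lists and the rules were chosen with earlier results of these data known. Named genes are called genes whose groups do not overlap (up to 12 risen and 16 fallen, by size), up to 3 called and 2 highly covered members of each list, EZH2 and MAPK14. Of these, 1 fallen gene is not reported here. A promoter was matched for 9 of the 10 risen and 46 of the 59 fallen genes (78.0%), against 77.0% of all tested genes. No test compared promoter properties between these sets. Same-numbered control and combo libraries did not deviate together (correlations of 0.00453 to 0.0501), so the fit has no replicate term. Alternatives were other windows, filters and scales, islands of at least 1 kb, covered length as a covariate, lists cut to equal length, a fit of 8 libraries, a replicate term and each library left out; leaving out the narrowest library of every group was added after seeing the data.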

Additional observations from a re-analysis of the deposited data

Results flagged for a closer look

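The highest or lowest value in a group of 4 libraries was marked when its gap to the nearest other took most of the range. The rule is meant to mark about 1 in 20 groups by chance, but that rate does not hold here. A group with no spread, such as control at ZNF595, cannot be marked. A group with islands in 1 library only, such as combo at CABS1, CD69 or TAAR9, is always marked. Of 76 groups examined 11 were marked, all at called named genes. Control replicate 4 stood low at TDRD15 (64.8%), HEPACAM2 (65.6%), LRRC63 (54.7%) and CD69 (41.7%). It was also the control library with the narrowest islands and the least covered length, and the part of that in these values was not tested. Combo replicate 3, the combo library with the most covered length, stood high at CABS1 (39.5%), NDNF (23.7%) and CD69 (46.2%). Combo replicate 2 stood high at TAAR9 (49.9%) and low at KIAA1755 (8.69%), combo replicate 1 low at ZNF595 (43.1%), and control replicate 1 high at MGMT (12.4%).

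The departure of the combination from the sum of the single inhibitors passed at LOC107987433 (-48.0 points) and at ZNF853 (-24.5 points). The limma adjusted p was 0.0212 for each and may be too low, since whole groups had no island. ZNF853 had islands in P38i libraries alone and entered the test through them. No interaction was called in the window around the gene start or with lists of equal length. Both had no island in any control or combo library, and the departure comes from the single inhibitors.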

How the results depend on the processing

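Every alternative describes called islands, since depth is unknown. Genes higher and lower in combo numbered 10 and 59. They became 7 and 35 with no flank, 0 and 1 around the gene start, 3 and 1 in a fit of 8 libraries, 133 and 224 after adjusting for covered length, 39 and 61 on lists of equal length, and 2 and 8 without the narrowest library of each group. With 1 library left out they ran from 0 to 17 and from 0 to 239. Each of the 69 genes kept its sign in every alternative that tested it, but was chosen for its difference in these same libraries. Of the single named values no alternative reversed any, and calls were lost. Of the 16 fits with 1 library left out, TAS2R9 and TAAR9 were called in 3 each. TDRD15 and FAM135B were called in 4 each and SLCO1A2 in 5, against 15 each for LRRC38 and PRR23C. PRR23C had no island in any combo or EPZ library, so its p-values in these fits may be too low. The cause of the lost calls was not tested.

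With replicate block the counts were 7 higher and 35 lower genes, 45 between combo and P38i (79 without), 1 interaction (2 without), and 1 higher and 0 lower bins (3667 and 6822 at an unadjusted p under 0.05 in limma). Same-numbered control and combo libraries correlated by 0.00453 to 0.0501 and others by -0.0711 to 0.0714, so the numbers are not taken to pair libraries.

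With 1 library left out, counts ran from 0 to 2 between combo and EPZ, 18 to 232 between combo and P38i and 0 to 4 for the interaction. The difference in covered length ran from -59.4 to 2.20 Mb and that in islands of 50 kb or more from -34.8 to 3.37 Mb; both turned positive without control replicate 1 alone.

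The 4 higher and 6 lower bins became 0 and 0 in a fit of 8 libraries, with bins of 5 kb and without the narrowest libraries, and 1 and 0 with lists of equal length; at an unadjusted p under 0.05 each of these had at least 2400 higher and 4529 lower bins. They ran from 1 to 6 and from 0 to 81 with 1 library left out. Gained bins numbered 4 and lost bins 0 when at least 80% was set against at most 20%, 363 and 763 with bins of 5 kb, and 265 gained with lists of equal length. With 1 library left out they ran from 177 to 576 and from 445 to 1187, the rule being looser over 7 libraries.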

Other observations

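Bins of 10 kb were also grouped by the number of protein-coding genes with their midpoint within 500 kb of the bin centre, a split chosen after the chromosome values were seen. In the most gene-rich class, 31337 bins with 16 or more genes, islands covered 13.5% ± 1.42 in control and 13.6% ± 1.12 in combo (SD, n = 4 each), with 16 gained and 10 lost bins. In the class with 1 to 5 genes, 131234 bins, they covered 25.2% ± 3.57 and 24.0% ± 1.83, with 82 gained and 188 lost. The groups overlapped in each class, and no test was made.

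IKZF1, the transcription factor Ikaros of lymphocytes, stood over its span at 91.9% ± 5.38 in control and 92.8% ± 4.01 in combo (n = 4 each, limma adjusted p = 0.924), but an island lay over its start in 0 control, 0 EPZ, 1 P38i and 3 combo libraries. It is taken from all the named gene starts that were looked at, and this count was not tested.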
